A study of Homo sapiens with 24 samples.

Results

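The RNA remaining in SETD2 knockdown cells after 6 h without transcription was compared with that in control cells. The material is HepG2, a human hepatocellular carcinoma line, carrying a stably expressed lentiviral short hairpin RNA either against SETD2 (shSETD2) or non-specific (shCtrl). Both lines had been selected in puromycin at 1 ug/mL and were then exposed for 6 h to actinomycin D at 5 ug/mL, a drug that blocks RNA synthesis. The members are the 2 shSETD2 and the 2 shCtrl libraries of the 6 h time point, 4 of the 24 RNA sequencing libraries of the series, chosen by line and time from the sample titles. The other libraries are the same lines at 0, 1 and 3 h and a line with a hairpin against METTL14 (shMETTL14) at all 4 times. Untreated (0 h) libraries of both lines and the 6 h libraries of shMETTL14 are used here only for comparison. The sources used here do not say whether a line is a pool of infected cells or 1 clone, nor how the replicate cultures were kept apart. The p-values and standard errors (SE) therefore measure the spread between libraries, estimated over all 24 in 1 model.

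SETD2 encodes the enzyme that adds the third methyl group to lysine 36 of histone H3 along transcribed genes, a mark that follows elongating RNA polymerase II. Proteins that read this mark take part in DNA methylation, splicing and, through METTL14, in the placement of N6-methyladenosine (m6A) on RNA during its synthesis, and m6A in turn affects how long many RNAs last. Once actinomycin D has stopped synthesis, the level of a transcript depends on how much was there before and how fast it is lost. A difference between lines at 6 h therefore holds both parts. The 0 h values are given beside it for some of the genes and over all genes. For a gene named without its 0 h value the parts are not separated here.

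SETD2 itself checked the labels. The gene lies on chromosome 3 from 47057919 to 47205457 on GRCh37. After 6 h it stood at 40.1 and 41.9 CPM (counts scaled to the library total, with TMM factors) in shCtrl and at 16.7 and 21 CPM in shSETD2. The shSETD2 libraries were both lower, at 45.9% of the control level, a log2 difference of -1.12 ± 0.08 (SE, n = 2 per group, edgeR adjusted p = 1.81e-10). At 0 h the levels were 131 and 129 against 90.4 and 81.7 CPM, a log2 difference of -0.59, so the gap was wider after the drug (6 h minus 0 h, -0.54, edgeR adjusted p = 0.0039). METTL14 did not pass the test at 6 h, at 14.4 and 15.2 CPM in shCtrl and 14 and 18.6 CPM in shSETD2, with overlapping libraries. With each library's trend on guanine and cytosine (GC) content removed its log2 difference at 6 h was 0.28 (edgeR adjusted p = 0.0106). At 0 h METTL14 was higher in shSETD2, at 29.3 and 30.0 against 38.0 and 38.6 CPM (log2 0.37, edgeR adjusted p = 0.0026). Its test of 6 h minus 0 h gave -0.23 (edgeR adjusted p = 0.388).

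The 4 libraries held between 18.3 and 21.5 M counts, and 3 counts corresponded to between 0.155 and 0.196 CPM. Hepatocyte markers were abundant in all 4 libraries, and all 8 of them were higher in shSETD2, with summed levels of 49202 to 49598 CPM in shCtrl and 104949 to 109141 CPM in shSETD2. Of the fibroblast markers, DCN, FAP, THY1 and COL1A2 were at 0 in all 4 libraries and the 9 markers together reached 21.3 to 22.2 CPM in shCtrl and 31.5 to 40.6 CPM in shSETD2. PTPRC, CD3E, MS4A1 and HBB of the blood list were at 0, and its sum of 2250 to 2427 CPM in shCtrl and 2304 to 2620 CPM in shSETD2 was nearly all LYZ. TEK, KDR and STAB2 of the endothelial and stellate list were at 0, and its sum of 4048 to 4170 against 2162 to 2221 CPM was nearly all RELN. The 7 markers of HEK293T cells, in which the virus was made, summed to at most 0.196 CPM.

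The main feature that set 1 library apart was its base composition. In replicate 1 of shSETD2, transcripts poor in GC were under-represented: genes in the lowest quintile of GC content (median 38.3% GC) stood 0.32 below their mean over all 24 libraries on the log2 scale, and genes in the highest quintile (median 61.0% GC) stood 0.28 above it. Replicate 2 of shSETD2 gave 0.01 and -0.06 for the same quintiles. The shCtrl libraries gave -0.07 and 0.20 in replicate 1 and 0.07 and 0.08 in replicate 2. Across 9993 genes the median absolute log2 difference between replicates was 0.22 in shSETD2 at 6 h, 0.10 in shCtrl at 6 h and 0.05 in shSETD2 at 0 h. The sign of the GC dependence of the 6 h comparison turned with the library chosen: Spearman's rho of the log2 difference with GC across 9930 genes was 0.29 and 0.45 for replicate 1 of shSETD2 against the 2 shCtrl libraries, and -0.29 and -0.07 for replicate 2.

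Stretches of 60 coding bases from 3 transcripts show what this composition looks like. They are taken from GENCODE v29, 5′ to 3′, with every G and C in capitals, and each window has nearly the GC content of its gene's longest transcript.
CREBRF: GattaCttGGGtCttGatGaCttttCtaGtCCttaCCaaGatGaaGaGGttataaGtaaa
METTL14: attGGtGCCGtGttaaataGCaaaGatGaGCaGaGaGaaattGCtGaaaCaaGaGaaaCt
GDF15: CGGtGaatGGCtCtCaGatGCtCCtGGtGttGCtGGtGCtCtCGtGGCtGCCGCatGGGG
The CREBRF window holds 21 G or C bases of 60 and that of METTL14 holds 23, against 38 in GDF15. In the 2 shSETD2 libraries the GC-poor CREBRF, a regulator of the unfolded protein response, stood at 3.38 CPM in replicate 1 and 5.87 CPM in replicate 2. The order was the opposite for the GC-rich genes, at 73.5 and 53.8 CPM for FSCN1, an actin-bundling protein, and at 39.3 and 31.4 CPM for GDF15, a stress-induced secreted protein. In shCtrl FSCN1 stood at 165 and 156 CPM and GDF15 at 146 and 137 CPM, so for both genes the gap between lines was several times the gap between replicates. For METTL14 the gap between the shSETD2 replicates exceeded the gap between the lines.

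**Figure D1:**
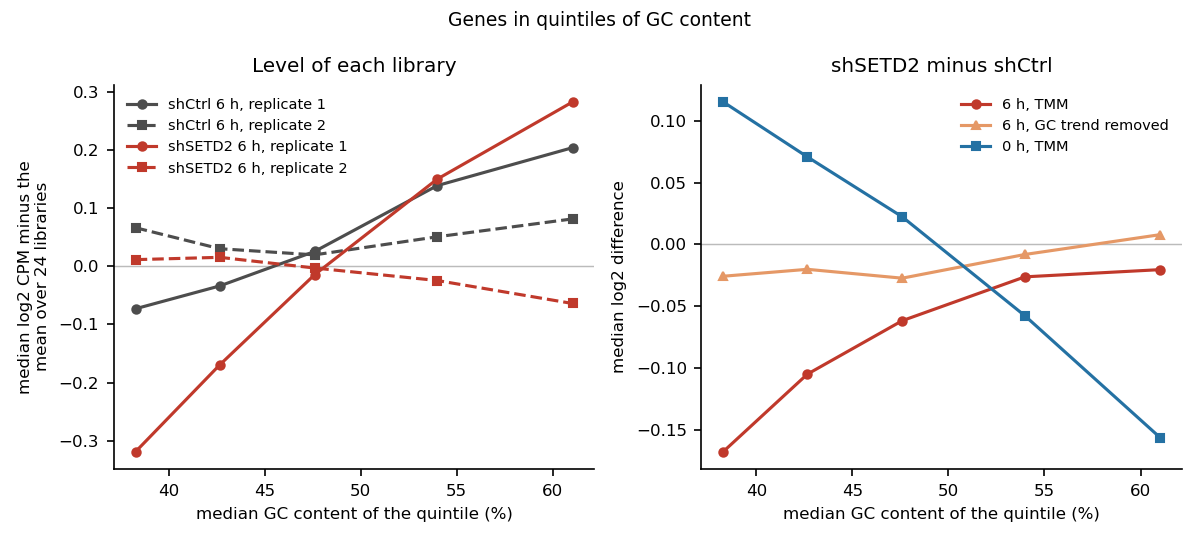
Genes of at least 5 CPM in quintiles of GC content (x axis, median GC of each quintile in %). Left, the median log2 CPM of each 6 h library minus the mean over 24 libraries, where replicate 1 of shSETD2 runs from -0.32 to 0.28; right, the median log2 difference of shSETD2 minus shCtrl at 6 h before and after each library's GC trend was removed, and at 0 h.

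The counts are therefore given also from a fit in which the trend of each library on GC content was removed. Of 14887 genes tested, 6085 (40.9%) passed the threshold at 6 h (adjusted p under 0.05). They comprised 2528 genes higher in shSETD2 (17%) and 3557 lower (23.9%). With the GC trend removed 3465 were higher (23.3%) and 3491 lower (23.4%), 46.7% in all, so the excess of lower genes depended on the processing. It also depended on the scaling: RLE size factors gave 2922 higher and 2912 lower, and library size alone gave 1975 and 4812, with all-gene medians of -0.07 under TMM, -0.01 under RLE and -0.16 under library size alone. Differences over 1 on the log2 scale were called for 738 genes in the higher direction (4.96%) and 531 in the lower (3.57%). Under all 4 of these fits 1975 genes were higher (13.3%) and 2846 lower (19.1%). The counts of the gene groups that follow are to be read against the shares of all genes under the same fit. They come from the model of all 24 libraries. For several groups the smaller counts from only the 4 compared libraries are given at the end.

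The 12 largest rises among genes of at least 5 CPM included plasma proteins and metabolic enzymes made by the liver. MEP1A, a metalloprotease, stood at 2.38 and 2.54 CPM in shCtrl and 136 and 128 CPM in shSETD2, a log2 difference of 5.75 ± 0.13 (edgeR adjusted p = 3.31e-19). PLG, the circulating precursor of plasmin, stood at 0.57 and 0.296 CPM in shCtrl and 23.8 and 23.6 CPM in shSETD2 (log2 5.73 ± 0.21, edgeR adjusted p = 9.83e-16). PCK1, the enzyme that commits carbon to gluconeogenesis, stood at 0.207 and 0.414 CPM against 9.28 and 10.1 CPM (log2 4.97 ± 0.28, edgeR adjusted p = 1.7e-12). The control libraries held 11 and 5 counts of PLG and 4 and 7 of PCK1, near the detection floor of 3 counts, and 46 and 43 of MEP1A. The knockdown libraries lay close together in these 3 genes. The log2 differences were already 5.88 for MEP1A, 5.86 for PLG and 4.85 for PCK1 at 0 h. CYP17A1, a steroid hydroxylase, had 3 and 1 counts in shCtrl (0.155 and 0.0591 CPM) and 5.50 and 4.56 CPM in shSETD2, too few control counts for a fold change. The other 8 were TNFSF10, C19orf80, GSTA1, F13B, ACSM2A, SHBG, SLC22A7 and CYP8B1, with log2 differences from 3.93 for CYP8B1 to 4.46 for C19orf80. They include a clotting factor subunit (F13B), the plasma carrier of sex steroids (SHBG), an organic anion transporter (SLC22A7) and the bile acid 12-alpha-hydroxylase (CYP8B1).

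The largest falls included genes of the cytoskeleton, the matrix and the cell cycle. CCND2, a G1 cyclin, stood at 26.1 and 25.2 CPM in shCtrl and 3.67 and 3.39 CPM in shSETD2, a log2 difference of -2.86 ± 0.11 (edgeR adjusted p = 1.88e-15). IL11, a cytokine of the interleukin-6 family, stood at 14.8 and 13.8 CPM against 1.89 and 1.76 CPM (log2 -2.97 ± 0.14, edgeR adjusted p = 1.06e-13). TUBA1A, an alpha-tubulin, stood at 70.6 and 64.9 CPM against 13.5 and 11.5 CPM (log2 -2.44 ± 0.08, edgeR adjusted p = 1.7e-16). The knockdown libraries lay well below both controls in each. CCND2 and IL11 had differed by -2.55 and -2.48 already at 0 h. TUBB2B, a beta-tubulin, CLDN6, a tight junction claudin, and THBS2, a matrix glycoprotein, had log2 differences of -2.96, -2.40 and -2.84. LCN15, PLA2G2A, EEF1A2, SYT11 and LOXL3 ran from -2.98 for LCN15 to -2.34 for LOXL3. TUBA1A and TUBB2B have close paralogs and overlap other annotated genes (TUBA1C and PSMG4), so their reads may be divided between entries. Since the use of strand in counting is not given, reads of overlapping genes cannot be told apart either, which among the genes named here applies to C19orf80, SHBG, CYP8B1, CLDN6, LOXL3, MVK, ACSS2, PKLR, FOXA1, DNAJB9, LOX, SETD5, IGF2BP3, METTL3, GAS5, ZNF566 and ZNF114.

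**Figure D2:**
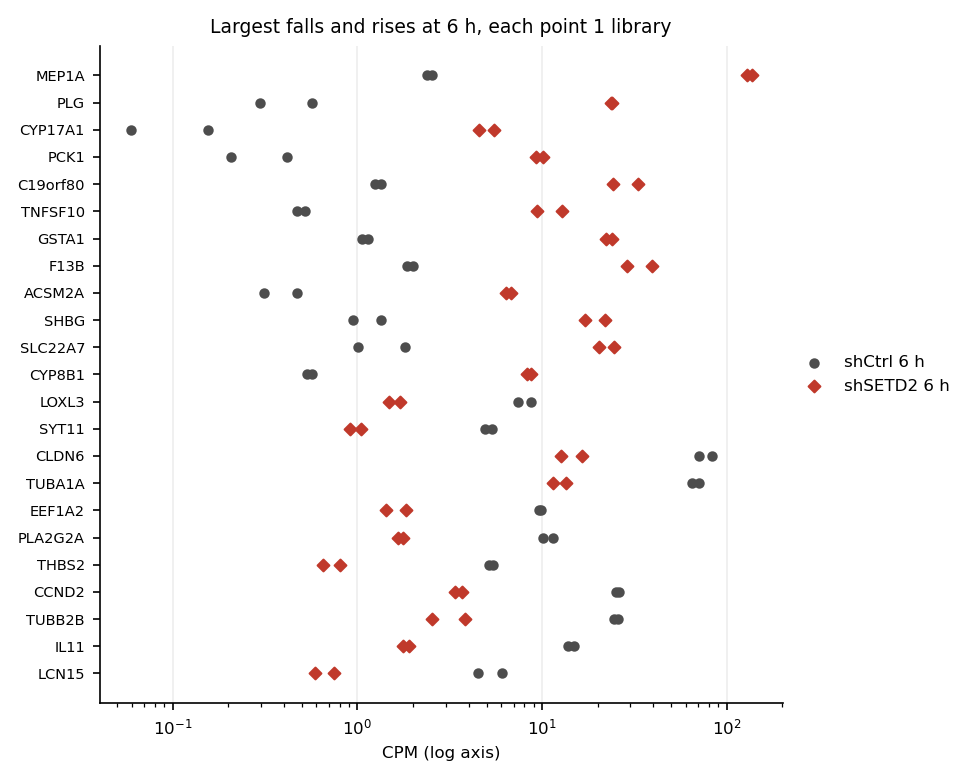
Level of the genes with the largest rises and falls in shSETD2 after 6 h (x axis, CPM on a log axis; each point is 1 library). In every gene both knockdown libraries lie on the same side of both control libraries, which the choice of genes required.

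The liver's secretory products took up more of the remaining RNA pool in the knockdown line. The 59 listed genes of hepatocyte secreted proteins held 18.6% and 19.5% of all counts in shSETD2 at 6 h and 11.7% and 11.8% in shCtrl. At 0 h the shares were 13% and 13% in shSETD2 and 7.78% and 7.82% in shCtrl, so the share was larger after the drug in both lines. Of 55 members tested, 46 were higher in shSETD2 (against 17% of all genes), 1 was lower and the median log2 difference was 0.74, against -0.07 over all genes. With the GC trend removed 48 were higher, and without any 1 of the 4 libraries between 44 and 47 were. In such bulk RNA, more cells of a kind and more RNA per cell cannot be told apart.

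ALB, which encodes albumin, the main plasma protein, stood at 8764 and 8957 CPM in shCtrl and 31861 and 33678 CPM in shSETD2, a log2 difference of 1.89 ± 0.03 (edgeR adjusted p = 1.19e-20), and its difference at 0 h was 1.88. TF, the iron carrier transferrin, stood at 6055 and 5652 against 15421 and 14198 CPM (log2 1.34 ± 0.04, edgeR adjusted p = 1.23e-16). KNG1, the kininogen precursor of bradykinin, stood at 7.15 and 8.16 against 87.4 and 93.7 CPM (log2 3.57 ± 0.10, edgeR adjusted p = 5.49e-18). The 0 h differences of TF and KNG1 were nearly the same, at 1.33 and 3.52. APOB, the structural protein of very low density lipoproteins, took the largest share of counts, with 4.36% and 4.53% in shCtrl and 5.53% and 6.35% in shSETD2 (log2 0.52 ± 0.05, edgeR adjusted p = 9.49e-09). AFP, the fetal albumin homolog, stood at 20831 and 22190 against 32213 and 37324 CPM (log2 0.69 ± 0.05, edgeR adjusted p = 2.16e-10). CP, the copper carrier ceruloplasmin, was the member that was lower, at 503 and 516 CPM in shCtrl and 376 and 464 CPM in shSETD2 (log2 -0.28).

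**Figure D3:**
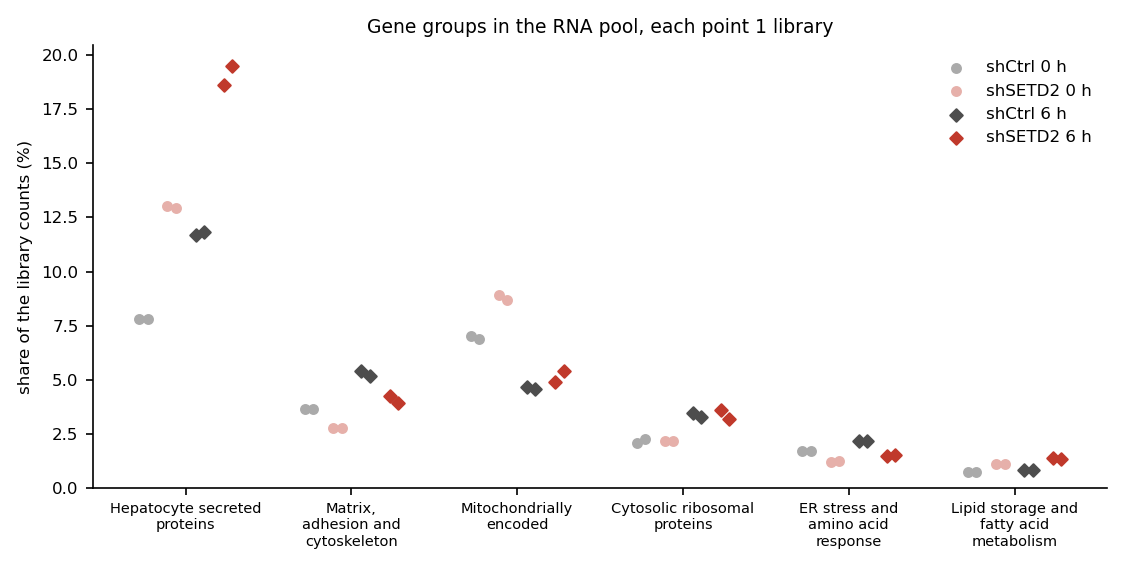
Share of each library's counts held by 6 gene groups (y axis, %; each point is 1 library; circles 0 h, diamonds 6 h). Hepatocyte secreted proteins reach 18.6% and 19.5% in shSETD2 at 6 h against 11.7% and 11.8% in shCtrl, and the matrix, adhesion and cytoskeleton group 4.25% and 3.93% against 5.41% and 5.18%.

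In metabolic groups of the liver more members were higher than lower in shSETD2. In cholesterol synthesis and uptake 25 of 30 tested members were higher and 2 lower, with a median of 1.05, and 27 were higher with the GC trend removed. MVK, mevalonate kinase, stood at 6.68 and 6.92 CPM in shCtrl and 48.8 and 37.3 CPM in shSETD2 (log2 2.67 ± 0.13, edgeR adjusted p = 8.58e-14). At 0 h it stood at 17.1 and 15.4 against 52.5 and 50.6 CPM, so both knockdown libraries lay above both controls at either time. GGPS1, which makes the geranylgeranyl lipid anchor, was among the lower members (log2 -0.49).

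Of 40 tested cytochromes and drug metabolism genes 30 were higher and 3 lower, with a median of 0.76, and the counts were the same with the GC trend removed. GSTA1, a glutathione transferase, stood at 1.14 and 1.06 CPM in shCtrl and 22.2 and 23.8 CPM in shSETD2 (log2 4.37 ± 0.13, edgeR adjusted p = 3.48e-17). CYP3A7, the fetal liver form of the major drug-oxidising cytochrome, stood at 4.87 and 5.68 against 29.3 and 34.8 CPM (log2 2.61 ± 0.10, edgeR adjusted p = 2.99e-15). Both genes have close paralogs, so reads could be divided among them. CYP2S1 (log2 -1.20), ALDH1A1 (-0.47) and GSTA4 (-0.35) were lower.

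Lipid storage and fatty acid metabolism had 35 higher and 8 lower of 49 tested, with a median of 0.55. With the GC trend removed 38 were higher and 8 lower, and 5 were lower without replicate 1 of shCtrl. FABP1, the liver fatty acid carrier, stood at 212 and 197 CPM in shCtrl and 1179 and 1154 CPM in shSETD2 (log2 2.51 ± 0.06, edgeR adjusted p = 8.85e-19). SCD, which desaturates fatty acids, stood at 2024 and 1978 against 4508 and 4624 CPM (log2 1.19 ± 0.03, edgeR adjusted p = 1.01e-17). ACSS2, which makes acetyl-CoA from acetate, had a log2 difference of 2.29. PLIN2, a coat protein of lipid droplets, was lower, at 140 and 132 against 72.2 and 67.2 CPM (log2 -0.96 ± 0.05, edgeR adjusted p = 4.44e-13).

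Among 15 tested genes of gluconeogenesis and glucose handling 10 were higher and 3 lower (median 0.67), or 11 and 3 with the GC trend removed. TXNIP, a brake on glucose uptake, stood at 1.66 and 1.54 CPM in shCtrl and 14 and 14.6 CPM in shSETD2 (log2 3.15 ± 0.12, edgeR adjusted p = 1.63e-15). SLC2A2, the liver glucose transporter, stood at 13.6 and 15.3 against 42.8 and 47.8 CPM. The lower members were PCK2, the mitochondrial partner of PCK1 (log2 -0.85), FOXO1 (-0.93) and UGP2 (-0.34). In the hypoxia and glycolysis list 12 were higher and 14 lower of 39, or 14 and 14 with the GC trend removed. The glucose transporters SLC2A1 and SLC2A3 were lower, with log2 differences of -1.16 and -1.24, and hexokinase HK2 at -0.89. Lactate dehydrogenase LDHA was higher, at 326 and 338 CPM in shCtrl and 807 and 892 CPM in shSETD2 (log2 1.35 ± 0.05, edgeR adjusted p = 4.07e-16), as was the liver pyruvate kinase PKLR (2.17).

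Liver transcription factors were more evenly split, with 10 higher and 5 lower of 30, the same counts as with the GC trend removed. Without replicate 1 of shCtrl or of shSETD2 6 were higher, as under library size alone. HNF4A, a master regulator of hepatocyte genes, stood at 138 and 129 CPM in shCtrl and 290 and 265 CPM in shSETD2 (log2 1.05 ± 0.05, edgeR adjusted p = 2.02e-13). CEBPA, another, stood at 5.75 and 5.85 against 13.2 and 10.8 CPM (log2 1.05 ± 0.13, edgeR adjusted p = 7.06e-07). At 0 h the differences of these genes were 0.59 and 0.27, and the test of 6 h minus 0 h gave edgeR adjusted p = 0.00064 for HNF4A and 0.0032 for CEBPA. FOXA1 (log2 -0.79), PROX1 (-0.45), ATF5 (-0.52), XBP1 (-0.27) and TCF7L2 (-0.39) were lower.

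**Figure D4:**
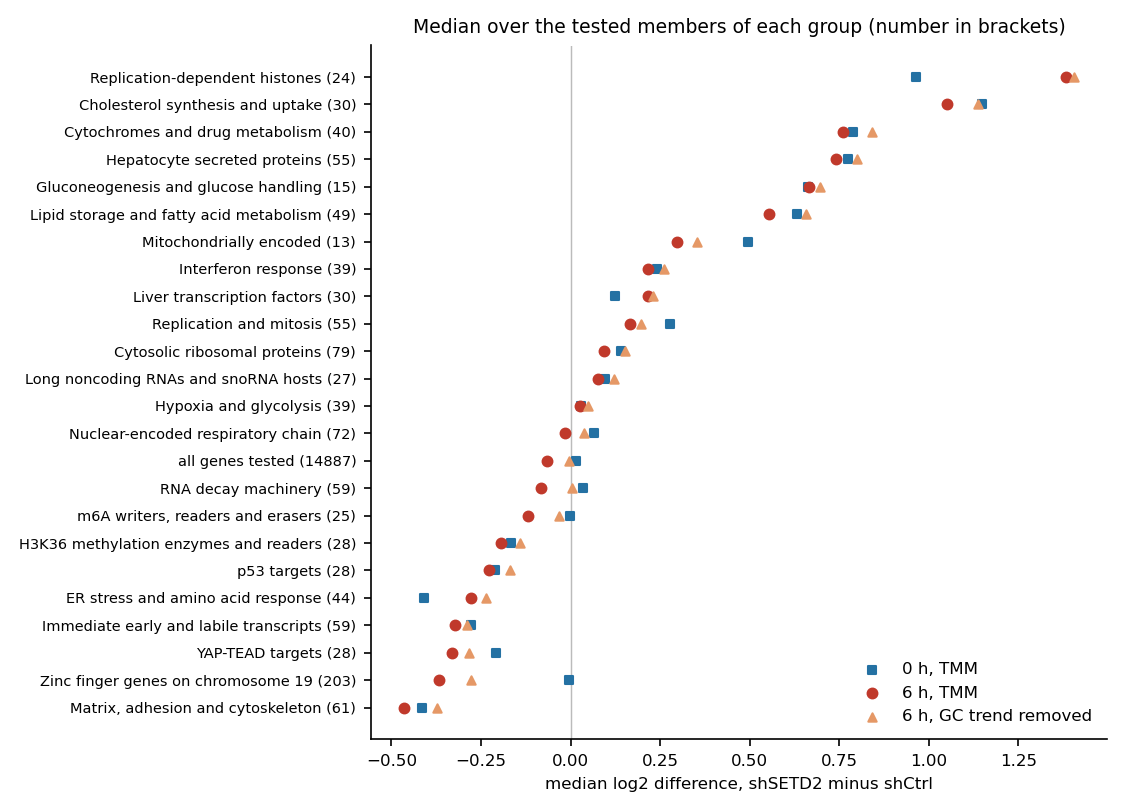
Median log2 difference of shSETD2 minus shCtrl over the tested members of each gene group (x axis; number of members in brackets) at 6 h, at 6 h with the GC trend removed and at 0 h. Cholesterol, cytochrome and secreted protein genes sit to the right at both times, and chromosome 19 zinc finger genes sit at -0.37 at 6 h and -0.00 at 0 h.

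In the stress, adhesion and growth groups more members were lower than higher in the knockdown line. Of 44 tested genes of the endoplasmic reticulum (ER) stress and amino acid response 26 were lower, against 23.9% of all genes, and 7 were higher (median -0.28), or 27 and 9 with the GC trend removed. HSPA5, the main ER chaperone, stood at 3819 and 3636 CPM in shCtrl and 1959 and 1911 CPM in shSETD2 (log2 -0.95 ± 0.04, edgeR adjusted p = 4.52e-15). ASNS, asparagine synthetase, stood at 415 and 411 against 177 and 187 CPM (log2 -1.18 ± 0.04, edgeR adjusted p = 1.03e-15). The knockdown libraries were close to each other and far from the controls in both genes. At 0 h HSPA5 and ASNS had differed by -0.83 and -0.89. DNAJB9, an ER co-chaperone, was higher, at 5.13 and 5.79 against 9.68 and 12.3 CPM. TRIB3, a pseudokinase induced by amino acid shortage, was lower at 0 h (log2 -0.46) and higher at 6 h (0.35), and the test of 6 h minus 0 h gave 0.81 (edgeR adjusted p = 0.00057).

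In matrix, adhesion and cytoskeleton 37 of 61 were lower and 10 higher, with a median of -0.46, or 39 and 15 with the GC trend removed. THBS1, thrombospondin 1, stood at 791 and 769 CPM in shCtrl and 300 and 293 CPM in shSETD2 (log2 -1.39 ± 0.04, edgeR adjusted p = 1.18e-17). MMP2, a gelatinase, stood at 63.4 and 52.7 against 13.8 and 9.52 CPM (log2 -2.31 ± 0.11, edgeR adjusted p = 1.32e-13). SPARC and the integrin ITGAV had differences of -1.06 and -1.03. FSCN1 was lower at -1.33 ± 0.09 (edgeR adjusted p = 1.58e-10), after -1.56 at 0 h. CDH1, the epithelial cadherin, was higher, at 55.5 and 57.0 against 169 and 165 CPM (log2 1.57 ± 0.05, edgeR adjusted p = 2.16e-16), and so was LOX, a collagen cross-linker (2.27). FN1, the fibronectin gene, differed by -0.16 (edgeR adjusted p = 0.00153) and lost its call with the GC trend removed (-0.06, edgeR adjusted p = 0.606).

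YAP-TEAD targets had 14 lower and 5 higher of 28, or 14 and 6 with the GC trend removed. The lower ones included ANKRD1, a cardiac-type ankyrin repeat protein used as a readout of that pathway, at 36.9 and 36.2 against 15.3 and 15.4 CPM (log2 -1.25 ± 0.06, edgeR adjusted p = 3.19e-13). TGFBR2 and NT5E of the same list were higher, at 0.99 and 1.99. Of 28 p53 targets 14 were lower and 1, PPM1D, higher, and with the GC trend removed 13 were lower and 3 higher. The lower count was 9 without replicate 1 of shCtrl. GDF15 had the smallest p of that list (log2 -2.00 ± 0.08, edgeR adjusted p = 3.56e-15).

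Immediate early and labile transcripts were at low levels in both lines after 6 h, with 0.0615% and 0.0616% of counts in shCtrl and 0.0418% and 0.0410% in shSETD2, against 0.386% and 0.379% and 0.292% and 0.295% at 0 h. Of 59 tested 23 were lower and 7 higher (median -0.32), or 22 and 7 with the GC trend removed. The higher count was 3 without replicate 2 of shCtrl and 4 without replicate 1 of shSETD2. JUND, a member of the AP-1 family, stood at 49.3 and 50.9 CPM in shCtrl and 27.2 and 24.1 CPM in shSETD2 (log2 -0.96 ± 0.06, edgeR adjusted p = 2.37e-11). KLF6, a zinc finger regulator, stood at 58.5 and 59.0 against 28.4 and 33.8 CPM (log2 -0.92 ± 0.07, edgeR adjusted p = 2.79e-10). At 0 h these genes differed by -0.36 and -0.39. MCL1, a short-lived survival factor, differed by -0.77 at 6 h and -0.11 at 0 h. MYC stood at 9.53 and 11.2 against 8.14 and 8.02 CPM (log2 -0.36 ± 0.11, edgeR adjusted p = 0.0129). The MYC call was lost under a filter of a mean of 5 CPM (-0.25) and in DESeq2 (-0.30). It was also lost with only the 4 compared libraries in the model (-0.29), and the difference was -0.24 without replicate 2 of shCtrl.

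Cell cycle genes were mostly higher where they differed. Of 55 tested replication and mitosis genes 25 were higher and 3 lower, with a median of 0.17, and with the GC trend removed 35 were higher and 3 lower. MKI67, the proliferation antigen, stood at 174 and 171 CPM in shCtrl and 215 and 230 CPM in shSETD2 (log2 0.37 ± 0.04, edgeR adjusted p = 4.06e-07). The lower members were the G1 cyclins CCND1 (787 and 797 against 339 and 353 CPM, log2 -1.19) and CCND2, and the centromeric histone CENPA (-0.40). Without replicate 2 of shSETD2 the lower count was 7, and library size alone gave 17 higher and 6 lower. Of 24 tested replication-dependent histone genes 12 were higher and the others did not pass the test, with a median of 1.38. With the GC trend removed 14 were higher. Both knockdown libraries lay above both controls for 16 of them, against 24.8% of all genes. HIST1H1C, a linker histone, stood at 14.4 and 9.70 against 78.3 and 73.3 CPM (log2 2.65 ± 0.11, edgeR adjusted p = 8.77e-15), and HIST1H2AC at 11 and 13.1 against 64.4 and 72.5 CPM. Of the 71 listed histone genes 47 had too few counts to be tested.

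Mitochondrially encoded transcripts, which are made by a separate polymerase, were higher for 9 of 13, with a median of 0.30, and for 10 with the GC trend removed. MT-CYB, a subunit of complex III, stood at 634 and 578 CPM in shCtrl and 1648 and 1713 CPM in shSETD2 (log2 1.47 ± 0.04, edgeR adjusted p = 9.61e-18), while MT-CO1 did not pass the test, at 11755 and 11292 against 11710 and 12011 CPM (log2 0.04, edgeR adjusted p = 0.315). The call for MT-CO1 depended on the processing, since it passed as higher under RLE scaling (0.099) and as lower in limma on log2(RPKM + 0.1) (-0.055). Nuclear-encoded genes of the respiratory chain had 4 higher and 6 lower of 72 (5.56% and 8.33%, against 17% and 23.9% of all genes). With the GC trend removed 18 were higher (25%, near the 23.3% of all genes) and 7 lower (9.72%, against 23.4%). Cytosolic ribosomal proteins had 14 higher of 79 under TMM (17.7%, near the share of all genes), 29 with the GC trend removed, 33 higher under RLE, and 5 higher and 7 lower under library size alone, so no direction held under all scalings. Their count also turned on single libraries, with 38 higher without replicate 2 of shSETD2, 9 without its replicate 1 and 7 without replicate 2 of shCtrl. Interferon response genes were higher for 10 of 39 (25.6%, against 17% of all genes), for 15 with the GC trend removed (38.5%, against 23.3%) and for 6 without replicate 2 of shCtrl or replicate 1 of shSETD2. Library size alone gave 7 higher and 2 lower. USP18, which removes the ubiquitin-like modifier ISG15, stood at 0.674 and 0.946 against 11.3 and 8.21 CPM (log2 3.61 ± 0.24, edgeR adjusted p = 3.33e-11).

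The enzymes and readers of histone H3 lysine 36 methylation had 13 of 28 members lower, SETD2 among them, and none higher, with a median of -0.19. With the GC trend removed 3 were higher and 13 lower. A model of only the 4 compared libraries gave 0 higher and 5 lower. SETD5, a SET domain protein, stood at 134 and 122 CPM in shCtrl and 84.0 and 82.3 CPM in shSETD2 (log2 -0.63 ± 0.05, edgeR adjusted p = 1.14e-09). The demethylases KDM4A and KDM4B were lower at -0.67 and -0.77. Of 25 m6A writers, readers and erasers 11 were lower and 3 higher, which became 8 and 4 with the GC trend removed. In the model of only the 4 compared libraries 2 were lower and 2 higher, so the excess of lower members did not hold there. EIF3A, an initiation factor subunit, stood at 302 and 304 against 137 and 148 CPM (log2 -1.09 ± 0.04, edgeR adjusted p = 4.52e-15). IGF2BP1 and IGF2BP3, paralogs that bind m6A-marked RNA, went opposite ways, at 616 and 619 against 389 and 407 CPM and at 65.4 and 64.8 against 114 and 138 CPM. METTL3, the catalytic partner of METTL14, differed by -0.21 (edgeR adjusted p = 0.00235) and did not pass the test with the GC trend removed (-0.12, edgeR adjusted p = 0.088).

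The RNA decay machinery had 10 higher (16.9%, against 17% of all genes) and 19 lower (32.2%, against 23.9%) of 59, so the higher share was that of all genes. The counts with the GC trend removed were 14 and 17, or 23.7% and 28.8% against 23.3% and 23.4% of all genes, and 6 were higher without replicate 2 of shCtrl. SMG1, the kinase of nonsense-mediated decay, was lower at 432 and 441 against 227 and 263 CPM (log2 -0.83 ± 0.05, edgeR adjusted p = 2e-11), as were the deadenylase subunits CNOT6 (-0.65) and PAN3 (-0.87). DCP2, the decapping enzyme, was higher at 33.5 and 42.9 against 60.3 and 83.5 CPM (log2 0.91). Among long noncoding RNAs and snoRNA hosts 6 were higher and 5 lower of 27, or 9 and 5 with the GC trend removed, with 3 lower without replicate 1 of shSETD2. GAS5, SNHG7 and SNHG8, hosts of small nucleolar RNAs, were higher, and the nuclear RNAs MALAT1 (log2 -0.41), NEAT1 (-0.23) and TUG1 (-0.35) lower.

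Among zinc finger genes on chromosome 19 the share of lower members at 6 h was near that of all genes, and few members were higher. At 0 h 20 of 203 tested members were higher and 20 lower, smaller shares than the 21.6% and 18.9% of all genes, with a median of -0.00. At 6 h 2 were higher (0.985%, against 17% of all genes) and 54 lower (26.6%, against 23.9%), with a median of -0.37 against -0.07. With the GC trend removed 4 were higher (1.97%, against 23.3% of all genes) and 44 lower (21.7%, against 23.4%), with a median of -0.28. In the direct test of 6 h minus 0 h 2 members were positive and 12 negative (5.91%, against 4.35% of all genes). At 6 h 32 were lower without replicate 1 of shSETD2, 33 without replicate 2 of shCtrl and 58 without replicate 2 of shSETD2. The group's median GC content was 42.3%, against 47.6% in the middle quintile of genes. Genes of at least 5 CPM in the GC quintile with a median of 42.7% had median differences of 0.07 at 0 h and -0.10 at 6 h. The zinc finger medians of the knockdown libraries at 6 h were -0.34 in replicate 1 and -0.22 in replicate 2 relative to the mean of the shCtrl libraries. The part of exon length and depth in this difference was not tested.

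ZNF121 stood at 19.8 and 22.9 CPM in shCtrl and 11.1 and 13.7 CPM in shSETD2 (log2 -0.79 ± 0.10, edgeR adjusted p = 1.81e-06), after 39.1 and 39.5 against 39.3 and 40.2 CPM at 0 h. ZNF566 stood at 4.77 and 4.26 against 2.12 and 1.89 CPM, after 8.97 and 11 against 9.49 and 9.60 CPM. Neither passed the test before the drug, and both knockdown libraries lay below both controls after it. ZNF114 (log2 -2.29) had been lower already at 0 h (-2.81). The higher members were ZNF548 (0.67) and ZNF90 (0.20). Zinc finger genes on this chromosome have closely similar copies, so reads could be divided between them.

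Across all genes the 6 h differences largely followed those at 0 h, which come from other libraries. Of 3221 genes higher at 0 h (21.6%) 59.9% were higher at 6 h and 1.30% lower, and of 2820 lower at 0 h (18.9%) 70.7% were lower at 6 h and 0.248% higher. Pearson's r of the log2 differences at the 2 times across 9980 genes of at least 5 CPM was 0.86, and 0.91 with the GC trend removed. The slope of the 6 h on the 0 h difference was 0.95. Of the 8846 genes not called at 0 h, 592 (6.69%) were higher and 1520 (17.2%) lower at 6 h. The shares in this paragraph are under TMM. At 0 h RLE gave 2749 genes higher and 3511 lower, and the fit with the GC trend removed 3368 and 3976. The balance of higher and lower genes thus depended on the scaling at 0 h as at 6 h. How the shares given here change with it was not tested.

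**Figure D5:**
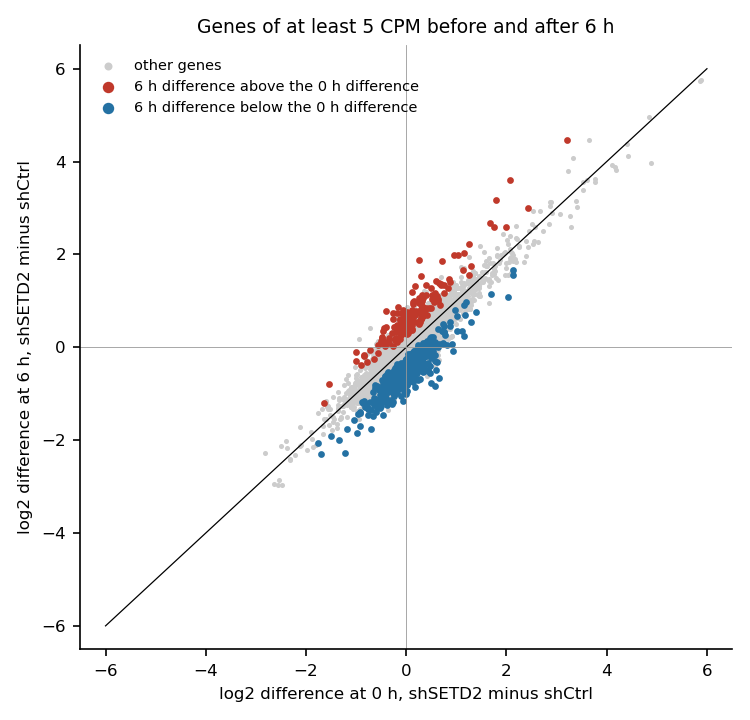
Log2 difference of shSETD2 minus shCtrl at 6 h (y axis) against that at 0 h (x axis) for 9980 genes of at least 5 CPM; the line marks equal differences. Coloured genes passed the test of 6 h minus 0 h under TMM, 186 above and 647 below over all genes tested, a split that turned to 368 and 226 under RLE scaling.

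The difference at 6 h departed from that at 0 h for 833 genes (5.6%), 186 in the positive direction (1.25%) and 647 in the negative (4.35%). This split turned with the scaling: it was 368 and 226 under RLE, and 622 (4.18%) and 432 (2.9%) with the GC trend removed. Under TMM, RLE, library size alone and the GC fit alike 173 genes were positive (1.16%) and 197 negative (1.32%). With only the 8 libraries of the 4 groups in the model the calls were 9 and 16. Without replicate 2 of shSETD2 at 6 h the total was 3624, and without replicate 1 it was 502.

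The differences at 0 h and 6 h ran with GC content in opposite directions, with Spearman's rho of -0.31 and 0.13 across 9930 genes. From the lowest to the highest GC quintile the median went from 0.12 to -0.16 at 0 h. At 6 h it went from -0.17 to -0.02. The deviation of genes from their mean over 24 libraries had a rho with GC of -0.33 in both shSETD2 libraries at 0 h. Several regulators were among the genes that passed the test of 6 h minus 0 h. TGFBR2, the type II receptor for TGF-beta, stood at 674 and 652 CPM in shCtrl and 734 and 746 CPM in shSETD2 at 0 h, and at 225 and 228 against 442 and 458 CPM at 6 h (6 h minus 0 h 0.83, edgeR adjusted p = 3.83e-09). EIF3A gave -0.69 (edgeR adjusted p = 3.66e-07). THBS1 gave -0.47 and ANKRD1 -0.87. LDHA and MT-CYB gave 0.65 and 0.61. Under TMM MT-CYB was the 1 of the 13 mitochondrially encoded genes that was positive, 5 were negative and the median was -0.20. These calls turned with the scaling. The negative call of MT-CO1 (-0.20) was lost under RLE (-0.08, edgeR adjusted p = 0.302). Another member passed as positive under RLE (0.26, edgeR adjusted p = 0.045). The calls of TGFBR2, EIF3A, THBS1, ANKRD1, LDHA and MT-CYB held under TMM, RLE, library size alone and the GC fit. From 0 to 6 h TGFBR2 thus declined less in the knockdown line than in the control line, relative to the rest of the RNA, and EIF3A, THBS1 and ANKRD1 declined more.

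The authors' deposited table of half-lives, which per the series' design text compares levels under the drug with untreated cells, gives values for some of these genes. In the authors' deposited table TGFBR2 has 3.09 h in shCtrl and 4.05 h in shSETD2. In the authors' deposited table EIF3A has 5.14 and 2.67 h, THBS1 12.8 and 4.65 h and ZNF121 5.67 and 2.58 h. These values come from the same lines and drug times, the 6 h libraries included, and are not separate evidence.

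Transcript properties that the choice of libraries did not use varied with the 6 h difference. From the shortest to the longest quintile of exon length the median log2 difference went from 0.01 to -0.17, and from 0.05 to -0.10 with the GC trend removed. In the longest quintile 14.3% of genes were higher and 42.9% lower, and in the shortest 24.5% and 20.3%. Spearman's rho with exon length was -0.17 across 9980 genes, and -0.05 for the 0 h difference. Genes were also ordered by their change over 6 h in the shMETTL14 line, libraries that the comparison does not use. The median difference was -0.13 in the quintile that declined most there. It was -0.02 in the opposite quintile, whose genes rose there relative to the other RNA. With the GC trend removed the medians of these quintiles were -0.05 and 0.02. The genes share libraries, length and base composition, so these values only describe.

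The METTL14 knockdown line at 6 h shares the shCtrl libraries, so its values are set beside those of shSETD2 and the lines were compared directly. Cholesterol genes were higher in shSETD2 than in shMETTL14 for 25 of 30 members and lower for 1, against 24.4% higher and 25.9% lower over all genes. MVK differed from shCtrl by 2.67 in shSETD2 and 0.42 in shMETTL14 (direct difference 2.25, edgeR adjusted p = 6.03e-13). ALB gave 1.89 and 0.74 (direct difference 1.15, edgeR adjusted p = 1.52e-17), and MEP1A 5.75 and -0.29. Secreted protein genes were split in the direct test, with 24 higher in shSETD2 and 16 lower of 55. Ribosomal proteins were higher in shSETD2 than in shMETTL14 for 70 of 79 and the others did not pass the test. Against shCtrl 71 of them were lower in shMETTL14, with a median of -0.39, and 14 were higher in shSETD2, with a median of 0.09. Over all 14887 genes 3926 were lower in shMETTL14 than in shCtrl, with a median of -0.02. The comparisons with shMETTL14 are given under TMM alone, and the ribosomal count of shSETD2 against shCtrl turned with the scaling. Matrix genes were lower for 37 and higher for 8 of 61, and chromosome 19 zinc finger genes lower for 63 and higher for 4 of 203. ASNS was lower in both lines against shCtrl, by -1.18 in shSETD2 and -2.08 in shMETTL14 (direct difference 0.90, edgeR adjusted p = 1.81e-13). FSCN1 gave -1.33 and -1.27, a direct difference of -0.06 (edgeR adjusted p = 0.648).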

How the data were processed

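Gene counts were used as the authors deposited them. The genome build GRCh37 and the tools HTSeq 0.6.1p1, TopHat and cutadapt are named per the submitters' processing notes, with no role, settings, annotation or strand use given in the sources used here. The authors' RPKM values and the authors' half-lives in h come from their deposited tables. ERCC spike-ins were added per the labels' protocols, but the table has 0 entries for them, so every value is relative to the other RNA of its library.

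The 14887 genes passing filterByExpr were tested by edgeR 4.0.16 under R 4.3.3 (robust glmQLFit, glmQLFTest, two-sided, TMM scaling, Benjamini-Hochberg over all genes at 0.05). The model took all 24 libraries, 1 mean for each group of line and time, and had 12 residual degrees of freedom. GC content is that of the longest GENCODE 29 transcript, known for 98.4% of the tested genes, and each library's loess trend on it (span 0.3) was removed as an offset. Alternatives included limma 3.58.1 on log2(RPKM + 0.1) and DESeq2 1.42.0.

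The libraries, lists and rules were chosen with earlier results of these data known. The rule for named genes took SETD2, METTL14, MYC and FSCN1. It added the 12 largest rises and falls of at least 5 CPM that did not overlap and held with the GC trend removed. From each list it took the members with the smallest p, at most 3, and it also took the 8 largest 6 h minus 0 h differences per direction of at least 5 CPM and the 10 genes with the highest count share. Other list members named, and TGFBR2, EIF3A, THBS1, ANKRD1, LDHA and MT-CYB as examples at 6 h minus 0 h, were chosen after their values were seen. Some genes and 1 sequence that the rules took are not reported here.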

Additional observations from a re-analysis of the deposited data

Results flagged for a closer look

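For 15 genes the difference between the lines at 6 h departed from that at 0 h, by edgeR's test of 6 h minus 0 h over all genes, among the largest such values by the rule for named genes. In the positive direction the log2 values were 2.41 for IER5L, 1.85 for SOX18, 1.63 for MUL1, 1.55 for USP18, 1.39 for TRAF3IP2, 1.38 for TP53INP2, 1.25 for C19orf80 and 1.24 for SNHG7. In the negative direction they were -1.59 for DUSP5, -1.40 for ZNF92, -1.32 for CREBRF, -1.26 for PIM1, -1.25 for SPIN4, -1.10 for ZNF566 and -1.06 for RP3-368A4.5.

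MUL1, a ubiquitin ligase of the mitochondrial outer membrane, stood at 25.6 and 25 CPM in shCtrl and 30 and 30.5 CPM in shSETD2 at 0 h. At 6 h it stood at 2.85 and 3.73 against 12.9 and 11.2 CPM. PIM1, a short-lived kinase, went from 24.4 and 25.7 against 35.3 and 35.6 CPM to 11.5 and 14.3 against 7.39 and 7.76 CPM, so the order of the lines turned. TP53INP2, an autophagy protein, stood at 21.5 and 17.8 against 187 and 169 CPM at 6 h. With only the 8 libraries of the 4 groups in the model MUL1, PIM1, SNHG7 and TP53INP2 kept their calls and the other 11 lost them. Under the removal of each of the 8 libraries in turn CREBRF, MUL1, PIM1, SNHG7 and TP53INP2 kept their calls, and the other 10 lost theirs at least once. IER5L had 6 and 3 counts in the shCtrl libraries at 6 h and 13 and 7 in shSETD2, and its call was among those lost without replicate 1 of shSETD2 (2.00) and without replicate 2 of shCtrl (2.10). Without replicate 1 of shSETD2 at 6 h the calls of ZNF92 (-0.87), RP3-368A4.5 (-0.83), SOX18 (1.39), TRAF3IP2 (1.34) and DUSP5 (-1.43) were lost. Without replicate 1 of shCtrl at 6 h those of C19orf80 (1.31), USP18 (1.31) and ZNF566 (-1.01) were lost, and without replicate 2 that of SPIN4 (-1.14).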

How the results depend on the processing

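The 6085 calls at 6 h became 4996 to 6402 without 1 library (2045 to 2760 higher, 2947 to 3642 lower). The count of lower genes was 2155 under a stricter filter (mean of 5 CPM). With only the 4 libraries compared 2685 passed, 1542 higher and 1143 lower, and SETD2 had an edgeR adjusted p of 0.00103. That model had fewer samples to estimate the spread and left out groups whose replicates lay closer together. The median absolute log2 difference between replicates was 0.22 in shSETD2 and 0.10 in shCtrl at 6 h, against 0.05 in each line at 0 h. The part of either in the lower count was not tested. In that model secreted proteins had 44 higher and 0 lower, cholesterol genes 22 and 1, and matrix genes 7 and 31. ER stress genes had 3 higher and 15 lower, immediate early genes 2 and 13, and YAP-TEAD targets 4 and 7. The p53 targets had 0 higher and 4 lower, RNA decay genes 3 and 3, and chromosome 19 zinc finger genes 1 and 14. Replication and mitosis genes had 12 higher and 2 lower. SETD2 stayed lower and past the threshold under every alternative run, from -0.96 to -1.29 without 1 library. MT-CO1, at 0.04 and not past the threshold, was -0.055 in limma on log2(RPKM + 0.1) and past it. FN1 turned from -0.16 to 0.020 when GC and exon length trends were removed, an alternative chosen after seeing the data. The cause of either was not tested. The 833 calls for 6 h minus 0 h (186 positive, 647 negative) depended on nearly every setting. Positive and negative counts were 368 and 226 under RLE, 917 and 179 under the stricter filter, 428 and 268 in DESeq2 and 377 and 314 in limma on log2(RPKM + 1). Library size alone gave 336 negative. Without a filter 1338 passed, 1093 negative. Limma on log2(RPKM + 0.1) gave 491, 264 negative. Removing GC trends gave 622 positive, and GC and length trends 634. With only the 8 libraries of the groups 25 passed, 9 and 16. Without 1 library the totals ran from 345 to 3624 (79 to 1181 positive, 62 to 2443 negative), the highest without replicate 2 of shSETD2 at 6 h. Replicate numbers were not taken to pair the libraries: deviations of same-numbered libraries from their group means correlated at 0.155 between shSETD2 and shCtrl at 6 h, and 9 of the 66 pairs of groups were above 0.1. With the replicate number as a block 6572 genes passed at 6 h, 2698 higher and 3874 lower, and 1665 for 6 h minus 0 h (313 and 1352). The block with GC trends removed gave 1297 (760 positive). Counts per library limit genes near 3 counts.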
